A study of Mus musculus with 23 samples.

Results

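The molecular clock genes examined here were Arntl (also called Bmal1), Npas2, Clock, Cry1, Cry2, Per1, Per2, Per3, Nr1d1 and Dbp, taken by their gene symbol from the annotation of the arrays. All 10 were measured, among 21511 genes tested. The mice were adult C57BL/6J males and came in 2 groups. The HF-Q group (11 mice) ate a high-fat diet supplemented with 0.33% quercetin by weight, a plant flavonol, and the HF group (12 mice) ate the same high-fat diet without it. Both diets lasted 12 weeks after 3 weeks on a normal-fat diet that all mice shared, and all mice were fasted for 2 to 4 h before tissue was taken. No source used here gives the hour of tissue collection. RNA from scrapings of the small intestine of each mouse, labelled with the dye Cy5, was hybridised against a pool of all mice labelled with Cy3, on 1 array per mouse and with no dye swap. Each value below is therefore a log2 ratio of a mouse to that pool, on which 1 unit is a 2-fold change, and it can be set against the same gene in another mouse but not against the level of another gene. The series asked whether quercetin leaves a transcript signature of genotoxicity.

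The clock is a feedback loop of transcription that runs in most cells, including those of the gut lining. ARNTL pairs with CLOCK or NPAS2 and switches on genes that carry an E-box, among them the Per and Cry genes, Nr1d1 and Dbp. PER and CRY proteins then inhibit that pair. NR1D1 (REV-ERB alpha) represses Arntl through elements it shares with the ROR receptors, so that Arntl and E-box genes such as Dbp peak at opposite times of day. DBP, an output factor, activates genes through the D-box, to which NFIL3 also binds as a repressor.

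The regulatory letters named above can be seen in the starts of some of these genes. Promoter windows from 250 bases before to 50 bases after the transcription start, from RefSeq on build GRCm38.p6, matched 9 of the 10 genes, with 13 windows in all. Per2 had no window in that table. Each window was searched on both strands for the E-box CACGTG, the D-box TTATGTAA and the ROR element core TAGGTCA, and these 3 motifs do not overlap in the windows shown. Of all 32851 windows of the table, 7.15% held the E-box, 0.938% the D-box and 2.61% the ROR element. Cry1 and Per1 held an E-box, Per3 held 2 D-boxes and Arntl held a ROR element. The first letters of these matches lay 60 bases before the start in Cry1, 166 bases before it in Per1, 205 and 158 bases before it in Per3, and 30 bases after it in Arntl. Clock, Npas2, Cry2, Nr1d1 and Dbp had none of these letters in their windows. Only exact matches within the windows were sought, so sites elsewhere in a gene or with other letters would be missed. Arntl and Per1 each had a further window that also held none, and the sequences shown for them come from the window with the match. The sequences shown are the 250 bases before the start of Cry1 (chr10:85185055-85185304, minus strand), Per1 (chr11:69098699-69098948, plus strand), Per3 (chr4:151044666-151044915, minus strand) and Dbp (chr7:45704997-45705246, plus strand), and 30 bases around the Arntl match (chr7:113207530-113207559, plus strand). They run 5′ to 3′ on the strand of the gene, and capitals mark the motif. Dbp is shown because it varied most among mice.
Arntl: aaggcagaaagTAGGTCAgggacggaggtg
Cry1: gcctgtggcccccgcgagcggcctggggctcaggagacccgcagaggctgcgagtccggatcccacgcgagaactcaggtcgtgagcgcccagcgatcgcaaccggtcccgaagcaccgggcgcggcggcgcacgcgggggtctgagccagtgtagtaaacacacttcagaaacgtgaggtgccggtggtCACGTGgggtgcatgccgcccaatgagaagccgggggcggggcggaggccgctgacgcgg
Per1: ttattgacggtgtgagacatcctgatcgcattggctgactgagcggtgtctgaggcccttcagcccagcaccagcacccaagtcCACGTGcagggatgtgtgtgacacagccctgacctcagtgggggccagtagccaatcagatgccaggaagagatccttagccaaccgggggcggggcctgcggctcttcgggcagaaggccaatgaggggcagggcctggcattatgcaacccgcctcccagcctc
Per3: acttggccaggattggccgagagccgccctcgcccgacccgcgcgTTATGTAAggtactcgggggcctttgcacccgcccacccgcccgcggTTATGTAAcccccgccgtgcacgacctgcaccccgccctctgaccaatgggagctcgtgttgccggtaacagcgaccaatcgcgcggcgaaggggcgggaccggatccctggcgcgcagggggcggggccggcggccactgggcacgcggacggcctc
Dbp: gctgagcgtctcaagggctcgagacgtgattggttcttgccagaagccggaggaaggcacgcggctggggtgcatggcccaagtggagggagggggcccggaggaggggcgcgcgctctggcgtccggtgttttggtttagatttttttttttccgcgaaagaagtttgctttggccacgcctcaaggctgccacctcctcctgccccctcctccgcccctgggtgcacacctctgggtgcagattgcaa

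The 10 genes had 13 probes on the array, and the brightest probe of each gene was used. On build mm9, as the array files give it, the probe of Arntl lies on chromosome 7 from 120457261 to 120457320 and that of Dbp on chromosome 7 from 52965322 to 52965381. Those of Npas2 (39418941 to 39419000) and Per2 (93313046 to 93313105) lie on chromosome 1, those of Per1 (68923364 to 68923423) and Nr1d1 (98630526 to 98631028) on chromosome 11, and that of Clock on chromosome 5 (76641377 to 76641436). Cry1 is probed on chromosome 10 (84594731 to 84594790), Cry2 on chromosome 2 (92243807 to 92243866) and Per3 on chromosome 4 (150379256 to 150379315). The exon or UTR that a probe lies in was not analysed here. No probe was saturated, and 8 of the 10 genes were well above background on all 23 arrays. Cry1 was so on 11 HF-Q and 9 HF arrays, and Per3 on 5 HF-Q and 8 HF arrays, so that the values of Per3 in particular lie close to background. The Cy3 pool, against which every ratio is taken, was well above background on only 6 of 23 arrays for each of these genes, so that their ratios, slopes and correlations rest mostly on a pool signal that was not well above background. The probes of Dbp moved together over the mice (r = 1.0, n = 23), those of Cry2 less so (r = 0.49, n = 23). The second Per1 probe was above background on only 1 HF-Q and 3 HF arrays and was not used.

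Facts of the whole series that touch these results are few. Between 48.7% and 56.7% of probes were well above background on an array. All 10 enterocyte markers, among them Alpi and Vil1, were above background on all 23 arrays, whereas the hepatocyte markers Ahsg and Mup3 were so on 0 arrays, Fgb and Hpx on 2 each and Alb on 11. The other 4 of the 9 hepatocyte markers, Ttr, Apoh, Serpina1a and Tat, were above background on all 23. A protocol field names liver as the source of RNA, and every other label names small intestine. The arrays lay on 3 slides, each with 3 or 4 HF-Q and 4 HF arrays, and slide is the one batch that the files show.

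Over the 23 mice, 9 of the 10 clock genes, all but Clock, varied more than the median gene. Dbp ranged from -2.19 through a median of -0.44 to 0.72 in HF-Q mice, and from -2.42 through 0.06 to 1.17 in HF mice. Its whole range was 3.6 log2 units, a 12.1-fold difference between the highest and the lowest mouse, and only 40 of the genes tested had a larger SD than its 1.26. Both diets held mice at either end of that range. Arntl, whose product is the shared partner of CLOCK and NPAS2, had a lowest, median and highest value of -0.7, 0.16 and 0.83 in HF-Q mice, against -1.1, -0.42 and 0.9 in HF mice. Its SD over the 23 mice was 0.66, its range 3.99-fold, and 98.8% of genes had an SD at or below that. Per1, a repressor that light and hormones also induce, ranged from -0.75 to 0.42 in HF-Q mice (median -0.31) and from -0.62 to 0.84 in HF mice (median 0.15). Its SD of 0.49 was at or above that of 97.2% of genes.

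The others varied less. Per2, the second Period repressor, had an SD of 0.34, Npas2 of 0.30, Nr1d1 of 0.30, Per3 of 0.27, Cry2 of 0.25 and Cry1 of 0.22. The median SD of all genes was 0.16. Clock was the one member below that median, with an SD of 0.14, a 1.48-fold range and 33.2% of genes at or below it. The rank of these genes by spread is a description, since an SD near background, as for Per3 and Cry1, is compressed. Per2 and Npas2 were also dim, with a mean log2 Cy5 of 7.77 and 7.97 beside 10.45 for Per1. Their SDs may be compressed too.

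**Figure D1:**
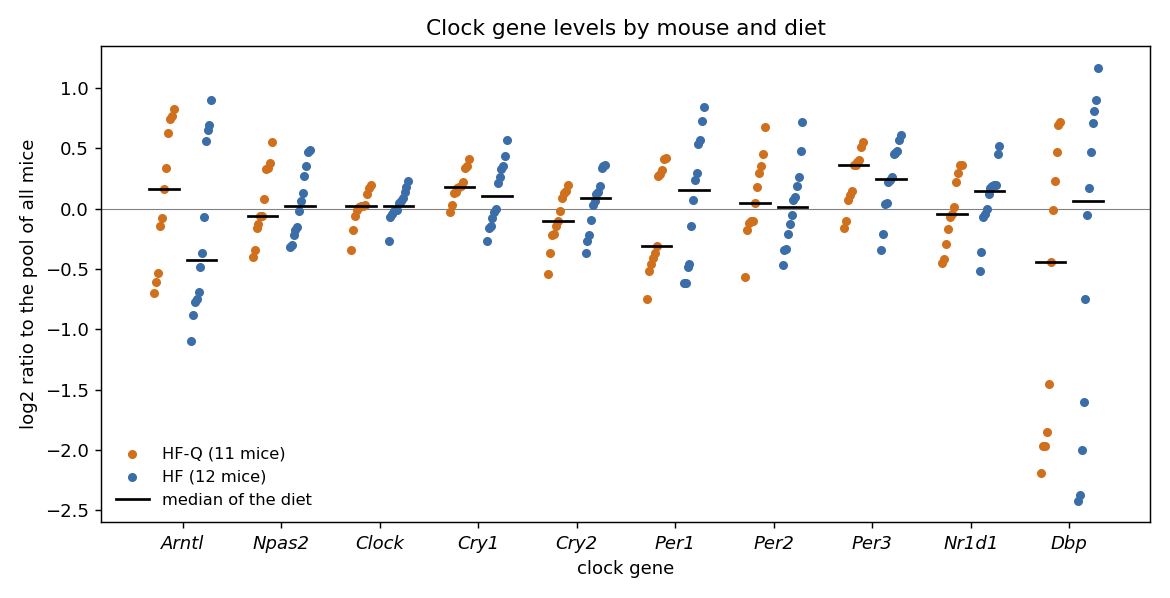
Each point is the log2 ratio of 1 mouse to the pool of all mice (vertical axis) for 1 clock gene (horizontal axis), with HF-Q mice in orange on the left and HF mice in blue on the right of each gene, and black bars are diet medians. Dbp spans 3.6 log2 units, Clock spans 0.57, and the 2 diets overlap for every gene.

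The comparison of HF-Q with HF asks whether quercetin moved the clock genes. No clock gene passed the test, and the ranges of the diets overlapped for all 10. Arntl was higher in HF-Q mice by 0.32 ± 0.25 log2 units (SE; 95% interval -0.2 to 0.84; limma adjusted p = 0.952), and 8 of the 11 quercetin-fed mice exceeded the median of the HF mice. Dbp, its counterpart, differed by -0.29 ± 0.49 (interval -1.31 to 0.72; limma adjusted p = 0.97), and 4 of 11 exceeded the HF median. As folds, the intervals ran from 0.871 to 1.79 for Arntl and from 0.404 to 1.65 for Dbp, so that for Dbp a change of more than 2-fold downwards lies within the interval.

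Npas2, which can stand in for CLOCK as the partner of ARNTL, ranged from -0.4 through -0.06 to 0.55 in HF-Q mice and from -0.32 through 0.02 to 0.49 in HF mice, and differed by 0 ± 0.12. Clock, the other partner, ranged from -0.34 through 0.02 to 0.2 in HF-Q mice and from -0.27 through 0.02 to 0.23 in HF mice, a difference of -0.03 ± 0.06. The diets of these partners of ARNTL lay on top of each other. Among the repressors, Cry2 had the largest difference relative to its SE. It ranged from -0.54 through -0.1 to 0.2 in HF-Q mice and from -0.37 through 0.09 to 0.36 in HF mice, and differed by -0.15 ± 0.1 (unadjusted p = 0.138, limma adjusted p = 0.952). Cry1, the other cryptochrome, ranged from -0.03 through 0.18 to 0.41 in HF-Q mice and from -0.27 through 0.11 to 0.57 in HF mice (0.07 ± 0.09).

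Per1 differed by -0.18 ± 0.19, Per2 by 0.06 ± 0.14 and Per3 by 0.01 ± 0.11. Per2 ran from -0.57 through 0.05 to 0.68 in HF-Q mice and from -0.47 through 0.01 to 0.72 in HF mice. Per3, a Period gene that the mouse clock can run without, ran from -0.16 through 0.36 to 0.55 in HF-Q mice and from -0.34 through 0.25 to 0.61 in HF mice. None of the differences of the Period genes exceeded its SE, so their signs were not settled. Nr1d1, the repressor of Arntl, ran from -0.45 through -0.04 to 0.36 in HF-Q mice and from -0.52 through 0.14 to 0.52 in HF mice, a difference of -0.09 ± 0.12. The differences of the dimmer genes had larger errors with the authors' log10 ratio, turned to log2. There Cry1 differed by 0.154 ± 0.32, Per2 by 0.143 ± 0.262, Per3 by 0.063 ± 0.23 and Npas2 by 0.068 ± 0.202.

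Of the clock genes, 5 were higher and 5 lower in HF-Q mice, with a median difference of -0.013, beside a median of -0.0038 over all genes tested. limma called 0 of the 10 clock genes and 0 of the 21511 genes (0%, smallest adjusted p 0.952), and 0 of the 10 against 973 of all genes (4.52%) had an unadjusted p under 0.05. Of the 21 further clock genes measured from a list of 23, 6 were higher and 15 lower, with differences from -0.27 to 0.13, and none had an unadjusted p under 0.05. Within slides the Arntl difference was 0.77 on slide 1, 0.15 on slide 2 and 0.09 on slide 3, and the Dbp difference was -0.97, 0.01 and -0.03.

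The level of Arntl was then taken into the fit, so that the diets were compared at the same Arntl level, a comparison chosen after the data were seen. Dbp was then higher in HF-Q mice by 0.32 ± 0.1 (unadjusted p = 0.00439, limma adjusted p = 0.961) and Per2 by 0.2 ± 0.09 (unadjusted p = 0.0433, limma adjusted p = 0.961). Neither passed the test: limma called 0 genes in this fit (0%), with 778 (3.62%) at an unadjusted p under 0.05. The other 7 members lay between -0.12 and 0.08 in this fit.

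Whether clock genes of opposite phase moved against each other was asked over the 23 mice, in pairs that were named with earlier results of these data known. The mouse with the highest Arntl, HF mouse 1 at 0.9, had the lowest Dbp, -2.42. HF mouse 12, with the lowest Arntl (-1.1), had a Dbp of 0.81. All 21 mice that sat on neither median had Arntl and Dbp on opposite sides of the 2 medians. Pearson's r of Arntl with Dbp was -0.97 (permutation p = 1e-05) and Spearman's rho was -0.98 (permutation p = 1e-05). This p is the smallest that 100000 resamples can give, and the value adjusted over the 45 pairs of clock genes was 7e-05. No other of the 21510 genes had a correlation with Arntl more negative than that of Dbp.

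Arntl with Per2 gave r = -0.74 (permutation p = 8e-05, adjusted p = 0.000225) and rho = -0.8 (p = 1e-05, adjusted p = 7e-05), with 20 of 21 mice on opposite sides of the medians. Only 39 genes were more negative. Npas2 with Dbp gave r = -0.76 (permutation p = 3e-05, adjusted p = 0.00015) and rho = -0.73 (p = 0.00015, adjusted p = 0.00045), again with 20 of 21 mice on opposite sides. Npas2 with Per2 gave r = -0.76 (permutation p = 2e-05, adjusted p = 0.000129) and rho = -0.81 (p = 1e-05, adjusted p = 7e-05), with 21 of 21 mice on opposite sides. In these pairs a mouse high in the activator gene was low in the partner.

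The pairs held in each diet. Arntl with Dbp gave r = -0.98 within HF-Q and -0.98 within HF, Arntl with Per2 gave -0.74 and -0.83, Npas2 with Dbp -0.77 and -0.76, and Npas2 with Per2 -0.77 and -0.76. Without the 2 mice farthest from the median of the gene on the x axis, the r values were -0.98, -0.73, -0.71 and -0.77 in the same order. Within slides, Arntl with Dbp gave -0.95, -0.99 and -0.98 (exact permutation p = 0.00067, 0.00496 and 2.48e-05; n = 8, 7 and 8). Arntl with Per2 gave -0.6, -0.88 and -0.63 within slides (exact permutation p = 0.114, 0.00813 and 0.0931), so that 2 of the 3 slides did not reach 0.05. Npas2 with Dbp gave -0.66, -0.83 and -0.77 (exact permutation p = 0.0736, 0.0335 and 0.0372), and Npas2 with Per2 gave -0.71, -0.86 and -0.73 (exact permutation p = 0.0515, 0.0163 and 0.0337).

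The Dbp values had their widest gap between -1.45 and -0.75. Below it were 9 mice (5 HF-Q, 4 HF) and above it 14 (6 HF-Q, 8 HF). Arntl and Dbp still moved against each other on each side, with r = -0.85 below the gap (exact permutation p = 0.00293, n = 9) and -0.87 above it (permutation p = 7e-05, n = 14). The other pairs did not reach 0.05 on 1 or both sides: Arntl with Per2 gave -0.56 and -0.23, Npas2 with Dbp -0.28 and -0.72, and Npas2 with Per2 -0.41 and -0.63. A side of the gap holds fewer mice and a narrower range of Dbp than the whole set.

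**Figure D2:**
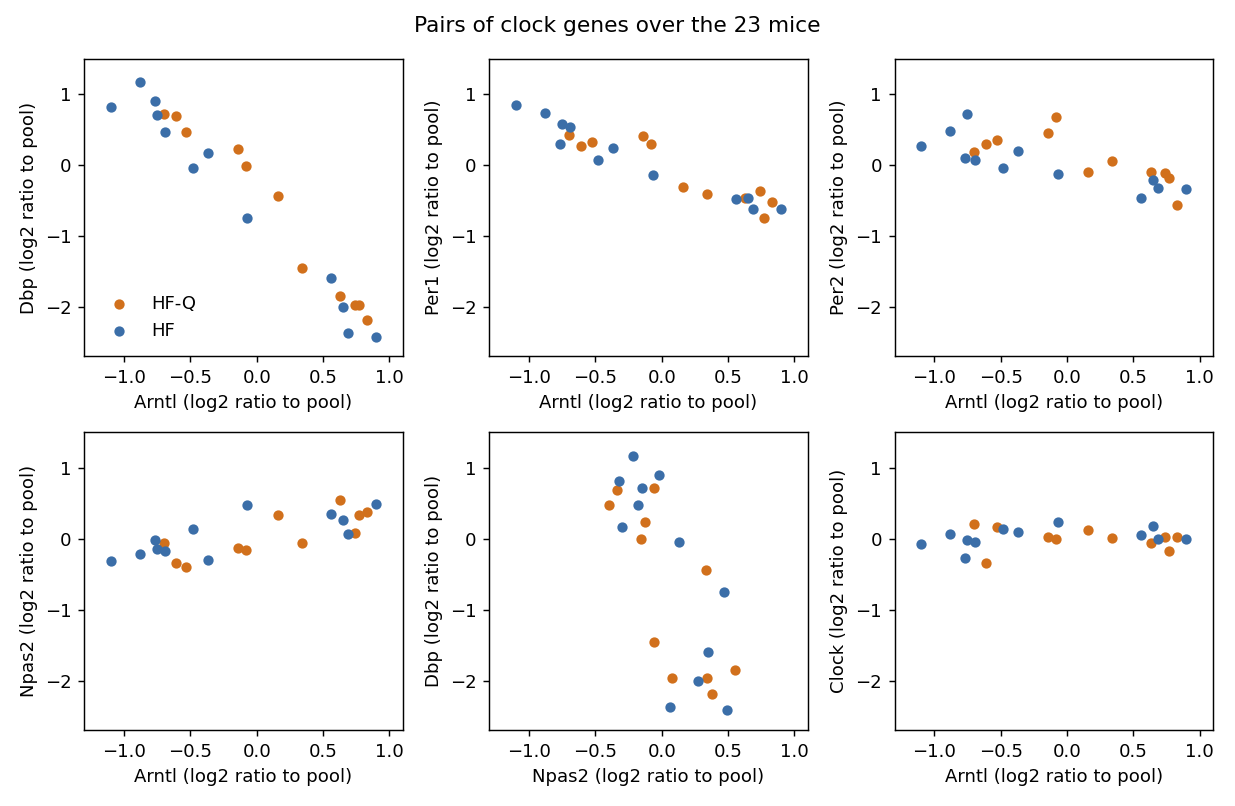
Each point is 1 of the 23 mice (HF-Q orange, HF blue), with the log2 ratio to the pool of 1 clock gene on each axis and the same axis ranges in every panel. Arntl against Dbp runs along 1 falling line from Arntl -1.1 to 0.9, with both diets along its length, whereas Arntl against Clock is flat (r = 0.08).

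Across all 45 pairs, 32 passed an adjusted permutation p of 0.05, 15 with a negative and 17 with a positive r, and each of the 32 had the same sign within HF-Q and within HF. The genes fell on 2 sides. Npas2 and Cry1 each followed Arntl, with r = 0.75 and 0.72, but r was 0.34 between Npas2 and Cry1 (permutation p = 0.111). Dbp, Per1, Per2, Per3, Nr1d1 and Cry2 went together on the other side, with r from 0.46 (Per3 with Nr1d1) to 0.95 (Dbp with Per1). Cry2 with Nr1d1 gave 0.78 and Dbp with Nr1d1 gave 0.76. The Cry2 values in these pairs rest on its brighter probe. Its other probe was also well above background on 11 HF-Q and 12 HF arrays, with r = 0.49 between them. The pairs of that other probe were not tested. Cry1 and Cry2, the paired cryptochrome repressors, lay on opposite sides (r = -0.63, permutation p = 0.00121).

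Npas2 followed only some of these. Its r was -0.80 with Per1, but -0.32 with Nr1d1 (permutation p = 0.14), -0.36 with Cry2 (p = 0.091) and -0.25 with Per3 (p = 0.247). Over the 23 mice, Clock stood outside both sides. Its 9 pairs had r from -0.11 to 0.17, and none had an unadjusted permutation p under 0.443. In all of them but that with Per3 (0.01 in HF-Q, 0.27 in HF), r had opposite signs in the 2 diets. Clock with Cry2 gave 0.45 in HF-Q and -0.34 in HF, and Clock with Nr1d1 gave 0.42 and -0.35. Whether these r values differ between diets was not tested.

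**Figure D3:**
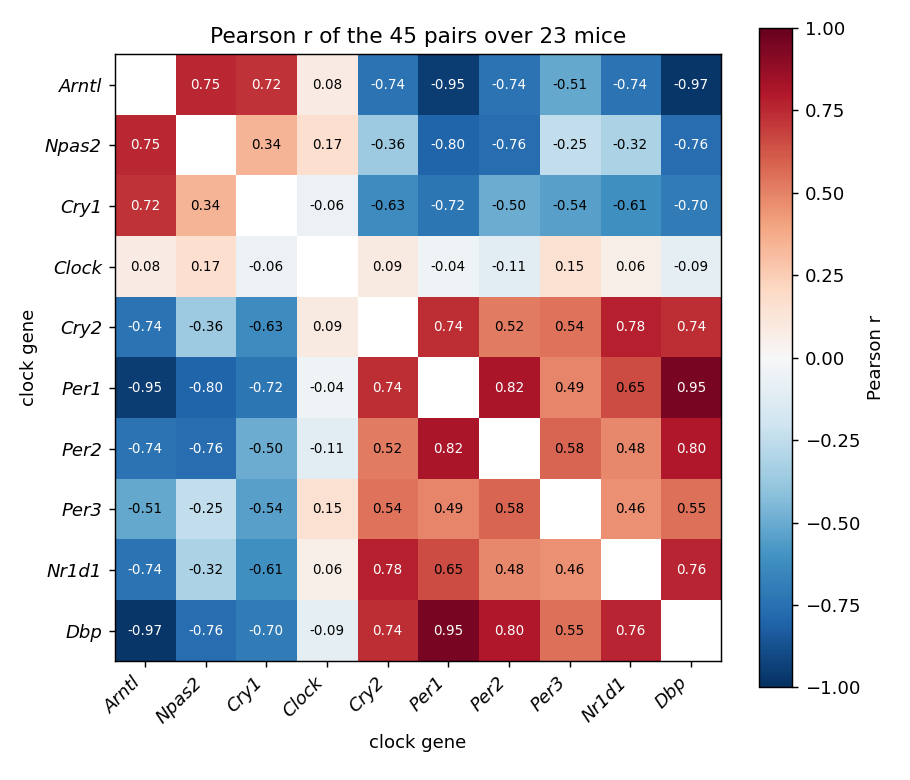
The grid gives Pearson's r over the 23 mice for each pair of clock genes, red for positive and blue for negative, with the gene on each axis. Arntl and Dbp have r = -0.97, Dbp and Per1 0.95, and the row of Clock stays between -0.11 and 0.17.

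To place the clock genes among all genes, each of the 21510 other genes was fitted on the level of Arntl with diet in the fit. The slope is the change in log2 ratio per 1 log2 unit of Arntl. limma called 172 genes (0.8%), 114 with a positive slope (0.53%) and 58 with a negative one (0.27%). Of the 9 clock genes besides Arntl, 7 passed, 2 with a positive and 5 with a negative slope. These signs use the same mice and values as the correlations above and are not independent of them.

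The output factor Dbp had the largest slope, -1.92 ± 0.08 (SE; limma adjusted p = 7.04e-14), and the smallest p of all genes. Per1 followed among the members with -0.72 ± 0.05 (limma adjusted p = 7.67e-09), then Per2 with -0.42 ± 0.07 (limma adjusted p = 0.00196). Nr1d1 had -0.33 ± 0.07 (limma adjusted p = 0.0122) and Cry2 -0.27 ± 0.06 (limma adjusted p = 0.0189). On the positive side stood Npas2 with 0.36 ± 0.06 (limma adjusted p = 0.00287) and Cry1 with 0.24 ± 0.05 (limma adjusted p = 0.0225). Per3 had a slope of -0.22 ± 0.08 and Clock of 0.02 ± 0.05, and neither passed (limma adjusted p = 0.278 and 0.933).

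The calls of 4 genes, Cry1, Cry2, Per2 and Nr1d1, depended on the processing. Cry2 lost its call with slide as a block (adjusted p = 0.0821), with the authors' log2 table (0.0663), with the mean over its probes (0.25) and with median centring (0.517), Nr1d1 with the table (0.0611), with Cy5 alone (0.0511) and with median centring (0.274), Cry1 with the slide block (0.0821) and Per2 with median centring (0.14). With the authors' log10 ratio, turned to log2, the slopes were 0.785 for Cry1, 0.565 for Npas2, -0.755 for Per2 and -0.594 for Per3, each over 1.5 times the size given above, Per2 exceeded Per1 (-0.725) in size and Per3 passed (adjusted p = 0.0162). Dbp, Per1 and Npas2 passed in every alternative run.

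Further clock genes were read from the same fit. Of 21 measured, 2 had a called positive slope and 5 a called negative one, beside 0.8% of all genes called. Tef and Hlf encode D-box factors of the same family as DBP, with slopes of -1.09 ± 0.06 (limma adjusted p = 2.15e-11) and -0.69 ± 0.09 (limma adjusted p = 0.000142), and Tef followed Dbp over the mice with r = 0.99. Tef ranged from -1.1 to 0.52 in HF-Q mice and from -1.28 to 0.93 in HF mice. Nr1d2 (REV-ERB beta) had -0.69 ± 0.05 (limma adjusted p = 1.02e-08), the ubiquitin protease Usp2 -0.52 ± 0.07 and the cell cycle kinase Wee1 -0.3 ± 0.07. Nfil3, the D-box repressor, had 0.8 ± 0.08 (limma adjusted p = 2.21e-06) and ranged from -0.65 to 0.91 in HF-Q mice and from -0.96 to 0.89 in HF mice. Fbxl21, which encodes a subunit of a ubiquitin ligase for cryptochromes, had 0.21 ± 0.06 with an unadjusted p of 0.0033 and did not pass. The 14 members of that list that did not pass had slopes from -0.18 to 0.21.

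**Figure D4:**
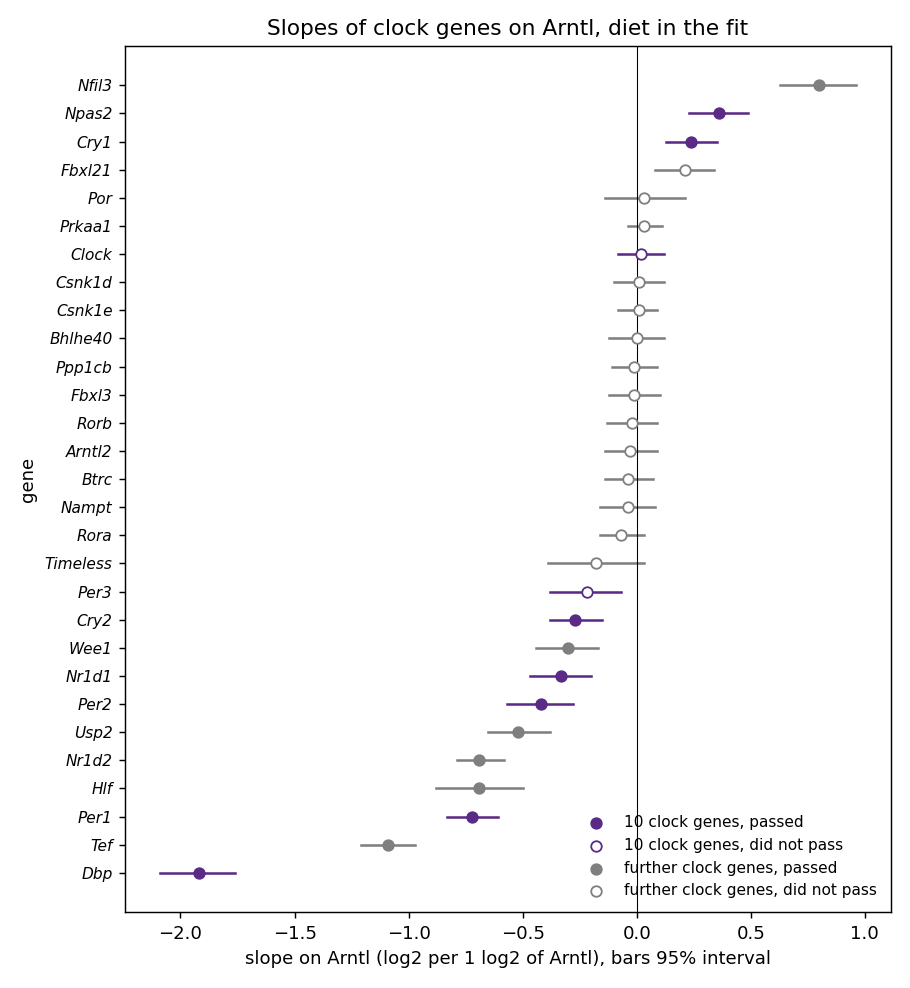
Points give the slope of each gene on the log2 ratio of Arntl, with diet in the fit, and bars give the 95% interval. Filled points passed the test over all genes and open points did not, with the clock genes named in the opening in purple and further clock genes in grey, 1 of which is not drawn. Dbp lies at -1.92 and Tef at -1.09, Nfil3 at 0.8, and Clock at 0.02.

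Among gut transport genes described as rhythmic, 2 of 11 measured passed in the fit on Arntl, beside 172 of all 21510 genes (0.8%). Abcg2, an efflux pump, had a slope of 0.23 ± 0.033 (limma adjusted p = 0.000204), and Abcb1a, another efflux pump, had -0.42 ± 0.078 (limma adjusted p = 0.00582). The peptide transporter Slc15a1 had -0.23 ± 0.057 and did not pass (limma adjusted p = 0.0521). None of 12 glucocorticoid targets, 11 fasting genes, 9 immediate early genes, 9 smooth muscle, 11 acinar or 10 enterocyte markers passed. With only 0.8% of all genes called, lists of this size can lack a call without differing from all genes. The acinar markers all had positive slopes, from 0.68 to 1.35, and their score had r = 0.26 with Arntl. The immediate early genes also all had positive slopes, from 0.03 to 0.28 with 4 of 9 at an unadjusted p under 0.05, and their score had r = 0.52 with Arntl. It ran from -0.21 to 0.35 in HF-Q mice and from -0.36 to 0.2 in HF mice, and its part in the slopes of the clock genes was not tested. The slopes differed between diets for 0 genes (0%; 592 genes, 2.75%, had an unadjusted p under 0.05; limma, smallest adjusted p 0.998).

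Fitted on Dbp in place of Arntl, 152 genes were called (0.707%), and 7 of the 9 other clock genes were among them, 4 with a positive and 3 with a negative slope. Arntl had a slope of -0.5 ± 0.02 on Dbp (limma adjusted p = 2.37e-13) and Per1 of 0.37 ± 0.03 (limma adjusted p = 5.58e-09), while Per3 (0.12 ± 0.04) and Clock (-0.01 ± 0.03) did not pass.

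The named genes whose levels were most like that of Arntl over the 23 mice, outside the clock lists, were Baiap2l1, Leo1, Rnf125, Denn2b and Gtf2ird1, with r from 0.88 to 0.91. Those most opposed were Anxa7 (r = -0.95), Cipc, an inhibitor of the CLOCK and ARNTL pair (-0.88), Sdad1 (-0.86), Slc20a1, a phosphate transporter (-0.85) and Herpud1 (-0.83). For Dbp the most alike were Anxa7 (0.92), Cipc (0.91), Herpud1 (0.87), Slc20a1 (0.86) and Glud1 (0.85), and the most opposed were Ypel2 (-0.9), Baiap2l1 (-0.89), Tprn (-0.88), Gtf2ird1 (-0.88) and Aagab (-0.87). These were picked by r over the same mice and so are a description.

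The level of Npas2 was set against all genes in the same way. limma called 2542 genes (11.8%), 665 with a positive slope (3.09%) and 1877 with a negative one (8.73%). Of the 9 other clock genes, 4 passed: Arntl with a slope of 1.67 ± 0.28 (limma adjusted p = 0.00294), Dbp with -3.21 ± 0.56 (0.00357), Per1 with -1.32 ± 0.2 (0.00165) and Per2 with -0.88 ± 0.16 (0.00418). Cry1, Cry2, Per3, Nr1d1 and Clock did not pass, with slopes from -0.32 to 0.25. Of the 21 further clock genes, 7 passed, 2 with a positive slope and 5 with a negative one, among them Tef (-1.77 ± 0.34) and Wee1 (-0.77 ± 0.12). The immediate early score had r = 0.63 with Npas2, and 2 of its 9 genes were called, both with a positive slope. The mean log2 ratio of enterocyte markers had r = 0.46 with Npas2, and that of smooth muscle markers -0.38, beside 0.12 and -0.08 with Arntl. With the smooth muscle and pancreatic acinar scores in the fit, 448 genes (2.08%) were called, and the same 4 members passed, Dbp with -3.77 ± 0.47. Under median centring 47 genes were called, among them 3 members, and Per2 did not pass (adjusted p = 0.101). In a scraping, fewer cells of a type and less RNA per cell cannot be told apart.

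The last question was whether clock genes follow the replicate number in the labels, which is a number that the sources used here do not explain. Of all genes, 6060 varied with it in limma with diet in the fit (28.2%, 17.1% with a positive and 11.1% with a negative slope). Among the clock genes 1 of 10 passed, and whether this differs from the share of all genes was not tested. Npas2 had a slope of -0.046 ± 0.0156 per number (limma adjusted p = 0.0286; -0.076 with the authors' log10 ratio), whereas Arntl (-0.037 ± 0.0379), Dbp (0.043 ± 0.075), Per1 (0.035 ± 0.0285) and Per2 (0.018 ± 0.0207) did not pass. The remaining members had slopes from -0.02 to 0.01.

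Of the mice with the highest Npas2, HF-Q mouse 2 had 0.55, HF mouse 1 had 0.49 and HF mouse 9 had 0.47, and the lowest were HF-Q mouse 11 with -0.4 and HF-Q mouse 7 with -0.34. The slope of Npas2 was -0.069 ± 0.0193 within HF-Q (limma adjusted p = 0.0363, among 11.9% of genes called) and -0.029 ± 0.0213 within HF (limma adjusted p = 0.423, 13.2% called). The difference of the slopes between diets did not pass (-0.04 ± 0.03, limma adjusted p = 0.726; 0 genes called, 0%, with 1903 genes, 8.85%, at an unadjusted p under 0.05). By rank, Npas2 gave rho = -0.7 within HF-Q (permutation p = 0.0206) and -0.41 within HF (p = 0.192), and after adjustment over the 20 tests of 10 genes in 2 diets the first was 0.413. Pearson's r of these was -0.73 (p = 0.0122, adjusted p = 0.245) and -0.35 (p = 0.26, adjusted p = 0.85).

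Some list scores, each the mean log2 ratio of a list in a mouse, moved with the same number. In the fit on the number 28.2% of all genes were called. Whether the counts of called markers below differ from that share was not tested. The smooth muscle score ran from -1.24 to 0.76 in HF-Q mice and from -0.65 to 1.02 in HF mice and had r = 0.84 with the number, with a called positive slope in 8 of 9 markers. The enterocyte score ran from -0.19 to 0.37 in HF-Q mice and from -0.17 to 0.5 in HF mice and had r = -0.72, with 4 of 10 markers called, all negative. The pancreatic acinar score ran from -3.87 to 2.32 in HF-Q mice and from -3.78 to 1.85 in HF mice and had r = -0.45. Of its 11 markers 3 were called, all negative, which is near the share of all genes. The enteric neuron and glia score had r = 0.73, the rhythmic gut transport score -0.66 and the immediate early score -0.47, whereas the glucocorticoid, fasting, distal, proximal, immune and hepatocyte scores had r between -0.18 and 0.15. Npas2 lost its call with the smooth muscle and acinar scores in the fit (slope -0.066 ± 0.031, adjusted p = 0.362), where 0 genes passed, with slide as a block (-0.044, adjusted p = 0.0524), under median centring (-0.047, adjusted p = 0.0815) and without any one of 6 mice, HF-Q mice 1, 2 and 11 and HF mice 1, 10 and 12 (adjusted p = 0.0507 to 0.0796). The SE of the Npas2 slope was 0.031 with these scores in the fit and 0.016 without them. The smooth muscle score had r = 0.84 with the number, so score and number cannot be fully told apart in that fit. The slope of Npas2 was -0.045 ± 0.016 with the distal small intestine score (adjusted p = 0.0363), and the part of the remaining scores in it was not tested. Of the 21 further clock genes measured, 4 passed in the fit on the number, beside 28.2% of all genes. Timeless (0.08), the phosphatase gene Ppp1cb (0.03) and the ubiquitin ligase gene Btrc (0.02) had a positive slope and Fbxl21 (-0.04) a negative one.

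**Figure D5:**
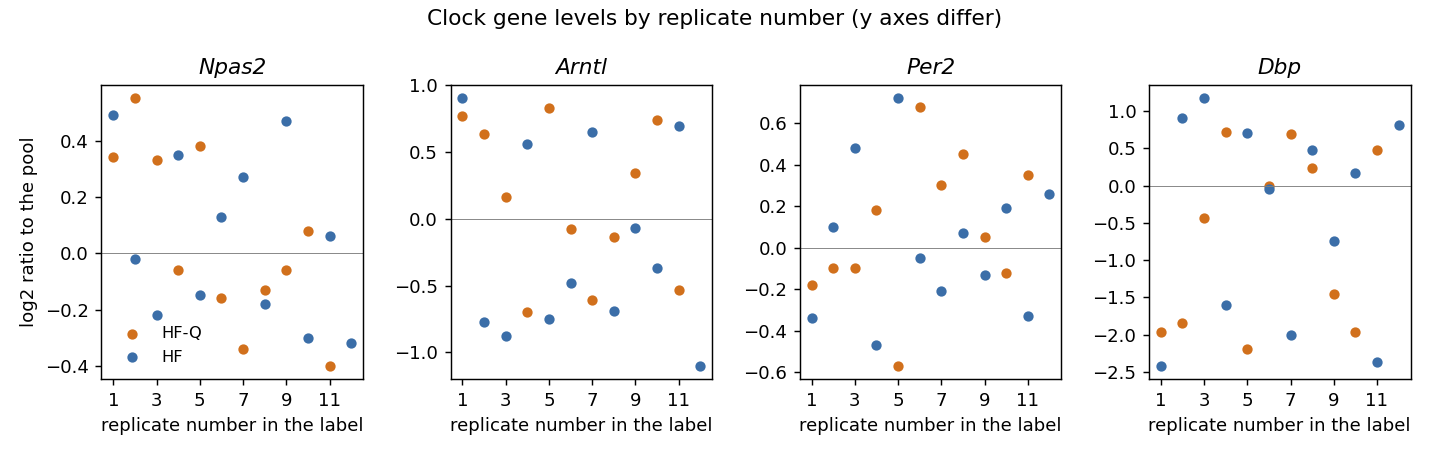
Each point is 1 mouse (HF-Q orange, HF blue), with the replicate number of the label on the horizontal axis and the log2 ratio to the pool on the vertical axis, which differs between panels. Npas2 has a negative slope on the number (-0.046), while the slopes of Arntl, Per2 and Dbp did not pass.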

How the data were processed

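RNA of 23 mice was measured on 2-colour arrays, 1 per mouse. Per the file headers, the authors deposited spot intensity values read with Agilent Feature Extraction 10.7.3.1, with no normalization between arrays. The log10 ratio of Cy5 over Cy3 in the same files, per the file headers made by that software, and a table of processed log2 values that the authors deposited for 31718 spots, were used as alternatives. No source used here says how the authors normalized that table, and its columns share a median of 9.11.

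Values were computed in limma 3.58.1 (R 4.3.3): normexp background correction with an offset of 50, loess within arrays with 3671 control spots at weight 0, outlier spots set to missing and log2(Cy5/Cy3) taken. Probes with Cy5 well above background on 50% or more of the arrays of either diet were kept (29293 of 55681 probes), and the brightest probe stood for a gene. The clock genes had 0 missing values. Fits used lmFit and eBayes with Benjamini-Hochberg adjustment over all genes and a threshold of 0.05, two-sided. On simulated data, 89.5% of genes changed by 0.5 log2 units between diets were recovered and 98% of those changed by 1. In the fit on Arntl the shares were 94.5% and 97.5%. In the fit on replicate number, 68% of genes with a slope of 0.05 per number were recovered and 94% of those with 0.1. False calls made up 2.01% to 6.21% of the genes called in these runs. The changed genes were drawn at random from all genes tested (median SD 0.16), with noise independent between genes. The recovered shares therefore do not carry over to genes of larger SD, such as Arntl (0.66) and Dbp (1.26). Correlations used two-sided permutation tests, 100000 resamples or exact under 10 mice. Python 3.11.15 with numpy 2.4.6 was used.

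Gene names came from RefSeq assembly GRCm38.p6. Arrays limit the precision through their number. Members and gene lists were chosen with earlier results of these data known. The genes named are the 10 clock genes, further clock genes with an unadjusted p under 0.05 in the fit concerned, up to 4 of each other list by p, and the 5 named genes most and least like Arntl and Dbp. The values of 1 further clock gene are not reported here.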

Additional observations from a re-analysis of the deposited data

How the results depend on the processing

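No gene passed between HF-Q and HF under any alternative run, including the replicate block over the 22 arrays that share a number (0 genes). Same-numbered mice deviated together in only 5 of 11 pairs (r over 0.1; range -0.35 to 0.39), so the numbers were not taken to pair mice. Where the sign of an HF-Q minus HF difference turned, it stayed uncalled. Under median centring Clock was 0.04 and Per3 -0.031, and with Cy5 alone Per3 was -0.108. With slide as a block Per3 was -0.005. With the smooth muscle and acinar scores Npas2 was -0.04 and Per3 -0.031, and with the distal score Npas2 was -0.006. Npas2 was -0.033 with the replicate block and -0.033 on the same 22 arrays without it. Within slide 1 Clock was 0.029, Per2 -0.131 and Per3 -0.183. Within slide 2 Per2 was -0.019, Per3 -0.005 and Dbp 0.005. Within slide 3 Clock was 0.064, Npas2 -0.029, Cry1 -0.049, Cry2 0.015, Per1 0.016 and Nr1d1 0.072. With Arntl in the fit Npas2 was -0.115, Cry1 -0.006, Per1 0.05, Nr1d1 0.02 and Dbp 0.322.

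Genes called on Arntl numbered 172, and 273 with the smooth muscle and acinar scores. Those on Npas2 numbered 2542, with 47 under median centring and 448 with those scores. Those on replicate number were 6060, with 3324 under median centring, 0 with those scores, 2569 within HF-Q and 2837 within HF. Slopes on the number that turned sign were Cry2 (0.002) under median centring and 0.015 within HF-Q, Clock with Cy5 alone (-0.006), Per3 with slide as a block (0) and within HF-Q (0), and Cry1 with the scores (0.001). With 1 mouse left out, they ran from -0.015 to 0.005 for Cry2, -0.005 to 0.089 for Dbp, -0.004 to 0.015 for Per3 and -0.053 to -0.04 for Npas2.

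The pairs kept their sign throughout, and Arntl with Dbp passed under every alternative run. With 1 mouse left out r ran from -0.98 to -0.97 for Arntl with Dbp, -0.8 to -0.71 for Arntl with Per2, -0.8 to -0.73 for Npas2 with Dbp and -0.78 to -0.74 for Npas2 with Per2. Arntl with Per2 did not pass within slide 1 (-0.6) or slide 3 (-0.63), below the Dbp gap (-0.56) or above it (-0.23). Npas2 with Dbp did not pass within slide 1 (-0.66) or below the gap (-0.28), nor did Npas2 with Per2 (-0.71 and -0.41). The gap, Arntl as a covariate and the 22 arrays without a block were chosen after seeing the data. Other causes of these changes were not tested. The filter for probes above background on all arrays leaves out Cry1 and Per3. Signal near background limits both, and replicates are single arrays.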
